A study of Rattus norvegicus with 98 samples.

Results

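Maff is 1 of the small Maf transcription factors, and it is described here with its relatives Mafg and Mafk and with Bach1, a repressor that binds DNA as their partner. All probe sets annotated to these 4 genes were taken: 5 of the 31042 probe sets tested, and 4 of the 14217 genes that the probe sets name. The genes were chosen with results of these data in view. They were selected on the differences of Maff from control at 6 ppm, at 15 ppm and after instillation, with the other genes added as its relatives and partner. Those Maff values are therefore given as a description, with no test.

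Messenger RNA was measured on Affymetrix Rat230_2 arrays in epithelial cells from the nose of 98 male F344/NCrl rats, 8 weeks old, with 1 array per animal. In array set 1 (82 arrays) rats were exposed by whole-body inhalation to air or to formaldehyde at 0.7, 2 or 6 ppm (6 h per day, weekdays only, 5 days per week) and were collected 6 h, 24 h, 5 days, 8 days or 19 days after the first exposure began. In array set 2 (16 arrays), all collected at 6 h, rats breathed air or 15 ppm, or were given 40 ul of distilled water or of 400 mM formaldehyde in each nostril, once. The 24 groups held 4 animals each, apart from 2 groups of 5 (2 ppm at 5 days and air at 8 days). No animal carried a transgene or had another treatment. Cells were freed with proteases from the walls of the lateral meatus and from the nasoturbinate, where transitional epithelium dominates with some respiratory epithelium.

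Small Maf proteins hold a basic leucine zipper, which binds DNA as a dimer, and lack a region that activates transcription. Paired with each other they act as repressors. Paired with NRF2 (Nfe2l2) or a related factor they bind antioxidant response elements and switch on genes that handle oxidants, electrophiles and heme, such as Hmox1 and Nqo1. BACH1 competes for the same partners and elements, keeps genes such as Hmox1 low, and leaves DNA when heme binds it. In airway epithelium this system is known for its part in the answer to reactive gases and smoke.

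RefSeq promoter windows (GRCr8 assembly, from 250 bases before the start of the gene to 50 bases after it, 300 bases) were matched by symbol for all 4 genes. Motifs of 3 kinds were searched on both strands: the cyclic AMP response element TGACGTCA, the AP-1 site TGAGTCA and the core of the antioxidant element, TGACNNNGC. All begin with the same letters, so matches can overlap, although none did in these 4 windows. The Maff window held TGACGTCA from base -51 to -44, counted from the start of the gene. The stretch before the start is shown because Maff had the greatest differences from control of the 4 genes, with the motif in capitals (chr7:112792537-112792786, plus strand).
Maff: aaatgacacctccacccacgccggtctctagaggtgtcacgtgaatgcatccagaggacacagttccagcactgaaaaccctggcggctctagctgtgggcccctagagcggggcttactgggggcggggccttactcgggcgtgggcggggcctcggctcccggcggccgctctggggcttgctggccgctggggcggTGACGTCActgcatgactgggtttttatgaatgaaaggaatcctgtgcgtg

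The same motif stood in 1.83% of 33469 rat promoter windows of this length. Each of the next stretches of 30 bases is centred on the only match in the window of its gene. They are shown because the motifs differ between the genes. In Mafk the capitals mark the antioxidant core, read on the opposite strand (bases -41 to -33, chr12:19959215-19959244, minus strand), a motif found in 12.1% of windows. In Bach1 they mark an AP-1 site after the start (bases 30 to 36, chr11:40425738-40425767, plus strand), found in 4.63% of windows. None of the 3 motifs was in the Mafg window. These are matches of letters, not sites shown to be bound.
Mafk: cgatcccggaaGCGGTGTCAgtactgggga
Bach1: gcgcggagggagTGAGTCAcctgaccgccg

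The deposited values are log2 signals between 2.67 and 14.83, with array medians of 5.94 to 6.07, and the correlation between any 2 arrays of a group was at least 0.962 over the probe sets. The epithelial markers Epcam and Krt5 had means of 12.22 and 12.02 over all arrays. Markers of olfactory epithelium, a tissue the labels say was discarded, were also present: Omp had a mean of 11.96, all 4 olfactory markers were measured, and their summed level per animal ran from 9.72 to 14.62. The RNA integrity number was recorded for 85 arrays, with a range of 7.2 to 8.8, and the lowest group median, 7.4, was that of the air animals of array set 2. It was lower at 6 ppm than in air at 8 days (7.7 to 7.8 in 3 animals against 8.2 to 8.8 in 5) and at 6 h (7.7 to 7.8 in 3 animals against 7.8 to 8.3 in 4). The number of animals limits the precision. In bulk samples such as these, fewer cells of a type and less RNA per cell cannot be told apart.

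Maff (1380229_at) was higher at each higher dose at 6 h and highest at 15 ppm and after instillation. In the air animals of array set 1 at 6 h its log2 levels were 6.14, 5.72, 6.28 and 6.28. At 0.7 ppm they were 6.39 ± 0.12 (mean ± SD, n = 4), at 2 ppm 7.09, 6.60, 7.50 and 6.29, and at 6 ppm 8.23, 7.60, 7.69 and 7.04. Each animal at 2 ppm or 6 ppm lay above each air animal, and the highest 2 ppm animals overlapped the lowest 6 ppm animals. The differences from air at 6 h were 0.29 ± 0.25 (log2, SE) at 0.7 ppm, 0.77 ± 0.25 at 2 ppm and 1.54 ± 0.25 at 6 ppm, the last 2.91-fold. At each time the 3 doses share 1 set of air animals.

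In array set 2 the 15 ppm animals had Maff levels of 9.08, 8.60, 8.42 and 8.79, against 5.93, 5.62, 5.89 and 5.51 in air. The difference was 2.98 ± 0.25, or 7.90-fold. After 400 mM formaldehyde the levels were 9.23, 9.19, 8.53 and 9.20, against 5.96, 6.73, 6.00 and 6.61 after water, a difference of 2.71 ± 0.25 or 6.55-fold. The lowest treated animals, at 8.42 and 8.53, lay far above the highest controls, at 5.93 and 6.73, and the treated groups overlapped each other. The 15 ppm effect exceeded the instillation effect by 0.27 ± 0.35 and the 6 ppm effect at 6 h by 1.44 ± 0.35, the second across the array sets.

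**Figure D1:**
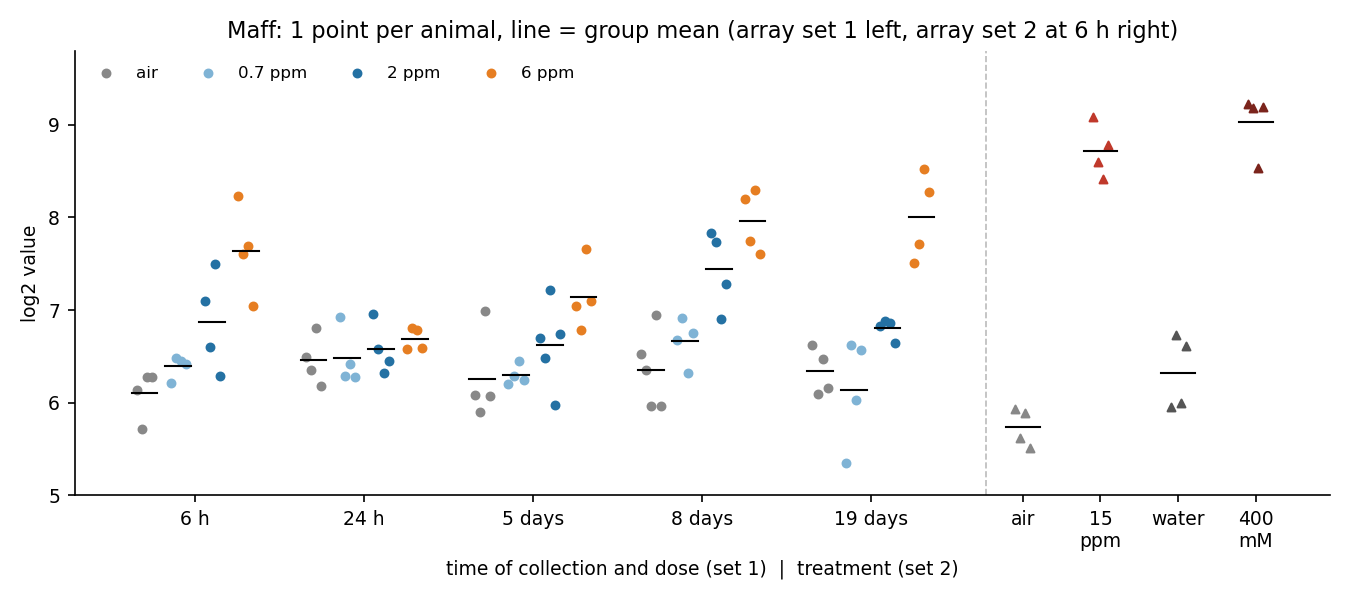
Log2 value of Maff in each of the 98 animals (points, triangles for array set 2) with group means (lines), by time of collection and dose on the left and by treatment at 6 h on the right. The 6 ppm animals lie between 7.04 and 8.23 at 6 h, between 6.58 and 6.80 at 24 h and between 7.51 and 8.52 at 19 days.

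Over the course of exposure at 6 ppm, Maff was back near air at 24 h and high again on the later days. At 24 h the 6 ppm animals had 6.58, 6.80, 6.78 and 6.59 and the air animals 6.49, 6.35, 6.81 and 6.18. These groups overlapped, with a difference of 0.23 ± 0.25. At 5 days the 6 ppm animals had 7.04, 6.79, 7.66 and 7.09, and 3 of 4 lay above the highest of the air animals, at 6.08, 5.89, 6.99 and 6.07. The difference was 0.89 ± 0.25.

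At 8 days the levels at 6 ppm were 8.20, 7.75, 8.30 and 7.61, against 6.52, 6.36, 5.96, 6.95 and 5.96 in air, and the groups did not overlap. The difference was 1.62 ± 0.24, or 3.06-fold. At 19 days they were 7.51, 7.71, 8.52 and 8.27, against 6.62, 6.09, 6.48 and 6.16, again with no overlap and a difference of 1.66 ± 0.25 or 3.17-fold. With the RNA integrity number as a covariate the 6 ppm differences were 1.66 at 6 h and 1.70 at 8 days. That fit used only the 85 arrays with a recorded number, which left 3 animals at 6 ppm at each of these times. Measured against the effect at 6 h, the effect at 24 h was lower by 1.31 ± 0.35 on the log2 scale, and the effects at 8 and 19 days differed from it by 0.08 ± 0.34 and 0.13 ± 0.35.

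At 2 ppm the difference in Maff was greatest at 8 days and smaller at 19 days. At 8 days the 2 ppm animals had 7.84, 7.74, 6.90 and 7.28, and 3 of 4 lay above every air animal. At 19 days they had 6.83, 6.88, 6.87 and 6.64, all above the highest air animal, at 6.62. The differences were 1.09 ± 0.24 at 8 days, 0.47 ± 0.25 at 19 days, 0.37 ± 0.24 at 5 days and 0.12 ± 0.25 at 24 h. None of the 5 differences at 2 ppm passed the test on its own (limma's moderated test, Benjamini-Hochberg over 31042 probe sets, adjusted p of 0.154 to 1). Averaged over the 5 times, Maff rose by 0.56 ± 0.11 or 1.48-fold at 2 ppm (limma, adjusted p = 0.00329), where 0.361% of all probe sets passed. Without the 8-day animals the mean was 0.43 and no longer passed (adjusted p = 0.0576). The air animals in this test are the ones the selected 6 ppm differences used, so it is not independent of them.

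At 0.7 ppm Maff differed from air by between -0.20 and 0.32 at the 5 times, and by 0.09 ± 0.11 on average (95% interval -0.13 to 0.31; limma, adjusted p = 1). No probe set passed in that average over times (0% of 31042; 882 had an unadjusted p under 0.05). The highest of the 20 animals at 0.7 ppm had 6.93, and none lay above the highest of the 25 air animals, at 6.99. At 2 ppm 6 of 21 animals did, at 6 ppm 15 of 20, and at 15 ppm and after instillation all 4 of each.

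Every exposed animal lay above every control animal for Maff in 7 of 17 comparisons between a dose and its control. The same held for 2.06% of all probe sets at 2 ppm and 6 h, 1.28% at 2 ppm and 19 days, 4.3% at 6 ppm and 6 h, 1.01% at 6 ppm and 8 days, 2.15% at 6 ppm and 19 days, 8.02% at 15 ppm and 8.94% after instillation. For the selected comparisons these shares are given as background only.

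Ordered by their mean, the 11 lowest of the 24 groups were all air, water or 0.7 ppm groups, from 5.74 ± 0.21 (air of array set 2, SD) to 6.48 ± 0.31 (0.7 ppm at 24 h). The top 5 were 6 ppm at 6 h (7.64 ± 0.49), 8 days (7.96 ± 0.34) and 19 days (8.00 ± 0.47), 15 ppm (8.72 ± 0.28) and instillation (9.04 ± 0.34). In each of the 23 neighbouring pairs of this order the ranges of the animals overlapped, so the order does not separate neighbours. Some groups further apart overlapped too: air at 5 days reached 6.99, and 2 ppm at 8 days began at 6.90.

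The control animals of Maff were compared with each other as well. Those in air did not pass the test across the 5 times (limma F test, adjusted p = 0.815), where 11.4% of probe sets passed, and their means ran from 6.10 ± 0.26 at 6 h to 6.46 ± 0.27 at 24 h. Air of array set 2 differed from air of array set 1 by -0.36 ± 0.25 (limma, adjusted p = 0.482; 4.7% of probe sets passed). Water alone had each animal above each air animal, by 0.59 ± 0.25, which did not pass (limma, adjusted p = 0.399; 0.0129% of probe sets passed). Against the air of array set 1 the 15 ppm difference was 2.62. These air and water animals are the controls of the selected differences, so the tests between them are not independent of the choice of Maff.

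Mafk (1372211_at), known as the small subunit of the blood cell factor NF-E2, rose at the highest exposures. In air of array set 2 its levels were 7.39, 7.36, 7.42 and 7.33, and at 15 ppm 8.51, 8.32, 8.16 and 8.55. After water they were 7.31, 7.75, 7.26 and 7.62, and after 400 mM formaldehyde 8.98, 8.94, 8.90 and 9.03. Neither pair of groups overlapped. Mafk rose by 1.01 ± 0.13 (log2, SE), or 2.02-fold, at 15 ppm (limma, adjusted p = 1.61e-08) and by 1.48 ± 0.13, or 2.78-fold, after instillation (limma, adjusted p = 4.79e-15). The effect of 15 ppm was lower than that of instillation by 0.46 on the log2 scale (95% interval of the difference -0.84 to -0.09), which did not pass over all probe sets (limma, adjusted p = 0.322; 0.879% passed).

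At 6 ppm Mafk was called at none of the single times (limma, 3 of 5 with an unadjusted p under 0.05). Of all probe sets 6.14% to 12.6% had such a p at these times, and 0.00322% to 0.412% were called. At 6 h its levels were 7.95, 7.52, 7.43 and 7.44, all above air at 7.31, 6.99, 7.20 and 7.40, and at 8 days 7.93, 7.61, 8.02 and 7.76, all above air at 7.44, 7.21, 7.44, 7.45 and 7.54. The differences of 0.36 ± 0.13 and 0.41 ± 0.12 did not pass (limma, adjusted p = 0.211 and 0.425). At 24 h the difference was 0.01 ± 0.13 and at 19 days 0.27 ± 0.13. Averaged over the 5 times, Mafk rose by 0.23 ± 0.06, or 1.17-fold (limma, adjusted p = 0.00934), where 6.37% of probe sets passed. The 15 ppm effect exceeded the 6 ppm effect at 6 h by 0.65 ± 0.19 (limma, adjusted p = 0.0615; 1.19% of probe sets passed), a value just short of the threshold.

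Mafg, a widely expressed small Maf, had a pair of probe sets. The one with the higher mean (1372024_at) is given first. It read 8.18, 7.91, 7.87 and 8.05 at 15 ppm against 7.46, 7.30, 7.31 and 7.58 in air, and 7.81, 8.15, 8.22 and 7.81 after formaldehyde instillation against 7.21, 7.38, 7.30 and 7.55 after water. The groups did not overlap. Mafg rose by 0.59 ± 0.12 or 1.51-fold at 15 ppm (limma, adjusted p = 0.000241) and by 0.64 ± 0.12 or 1.56-fold after instillation (limma, adjusted p = 1.71e-05), and these effects differed by -0.05 ± 0.17.

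The second Mafg probe set (1368874_a_at) read 5.69, 5.90, 5.56 and 6.09 at 15 ppm against 5.64, 5.52, 5.51 and 5.21 in air, with overlap. Its difference of 0.34 ± 0.14 did not pass (limma, adjusted p = 0.14). After instillation it rose by 0.81 ± 0.14, or 1.75-fold, with no overlap between 5.90 to 6.37 and 5.09 to 5.53 (limma, adjusted p = 7.88e-06). Its effect at 15 ppm was lower than that after instillation by 0.47 on the log2 scale, which did not pass (limma, adjusted p = 0.387).

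At 6 ppm the call for Mafg was at 19 days. The first probe set read 7.31, 7.12, 7.35 and 7.49 against 6.76, 6.79, 6.84 and 6.89 in air, a rise of 0.49 ± 0.12 or 1.41-fold (limma, adjusted p = 0.0295). Its mean at 6 ppm there, 7.31, was the lowest of the 5 times at 6 ppm, and the air mean, 6.82, was the lowest of the 5 times in air. The other probe set differed by 0.12 ± 0.14 there, and the mean of both by 0.30 (limma, adjusted p = 0.106). The call was lost in 6 of 8 fits that left out 1 animal of these groups, those without animals 308, 310 and 312 at 6 ppm or 73, 75 and 76 in air, and the rise was 0.44 to 0.56 over the 8. Averaged over the 5 times, the first probe set rose by 0.26 ± 0.05 or 1.20-fold at 6 ppm (limma, adjusted p = 0.000881), and the second differed by 0.08 ± 0.06 (limma, adjusted p = 0.499). At 24 h and 6 ppm the second read 5.54, 5.56, 5.46 and 5.36, within the air range of 5.40 to 6.04 apart from its lowest animal, a difference of -0.31 ± 0.14 that did not pass (limma, adjusted p = 0.608).

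Bach1 (1377699_at), the repressor among the 4 genes, gave a weak signal, with a mean of 4.43 at the 25.7th percentile of probe set means. It read 4.77, 5.05, 4.64 and 5.04 at 15 ppm against 4.53, 4.45, 4.63 and 4.39 in air, and 4.71, 4.96, 4.97 and 5.01 after instilled formaldehyde against 4.47, 4.39, 4.48 and 4.60 after water. The exposed animals lay just above the controls in both. Bach1 rose by 0.38 ± 0.10 or 1.30-fold at 15 ppm (limma, adjusted p = 0.00609) and by 0.43 ± 0.10 or 1.34-fold after instillation (limma, adjusted p = 0.000527). At 6 ppm it differed by -0.00 to 0.15 at the 5 times, and by 0.08 ± 0.04 on average (95% interval -0.01 to 0.17; limma, adjusted p = 0.274). The 15 ppm call was lost without animal 342 of the 15 ppm group (0.32; limma, adjusted p = 0.0501).

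**Figure D2:**
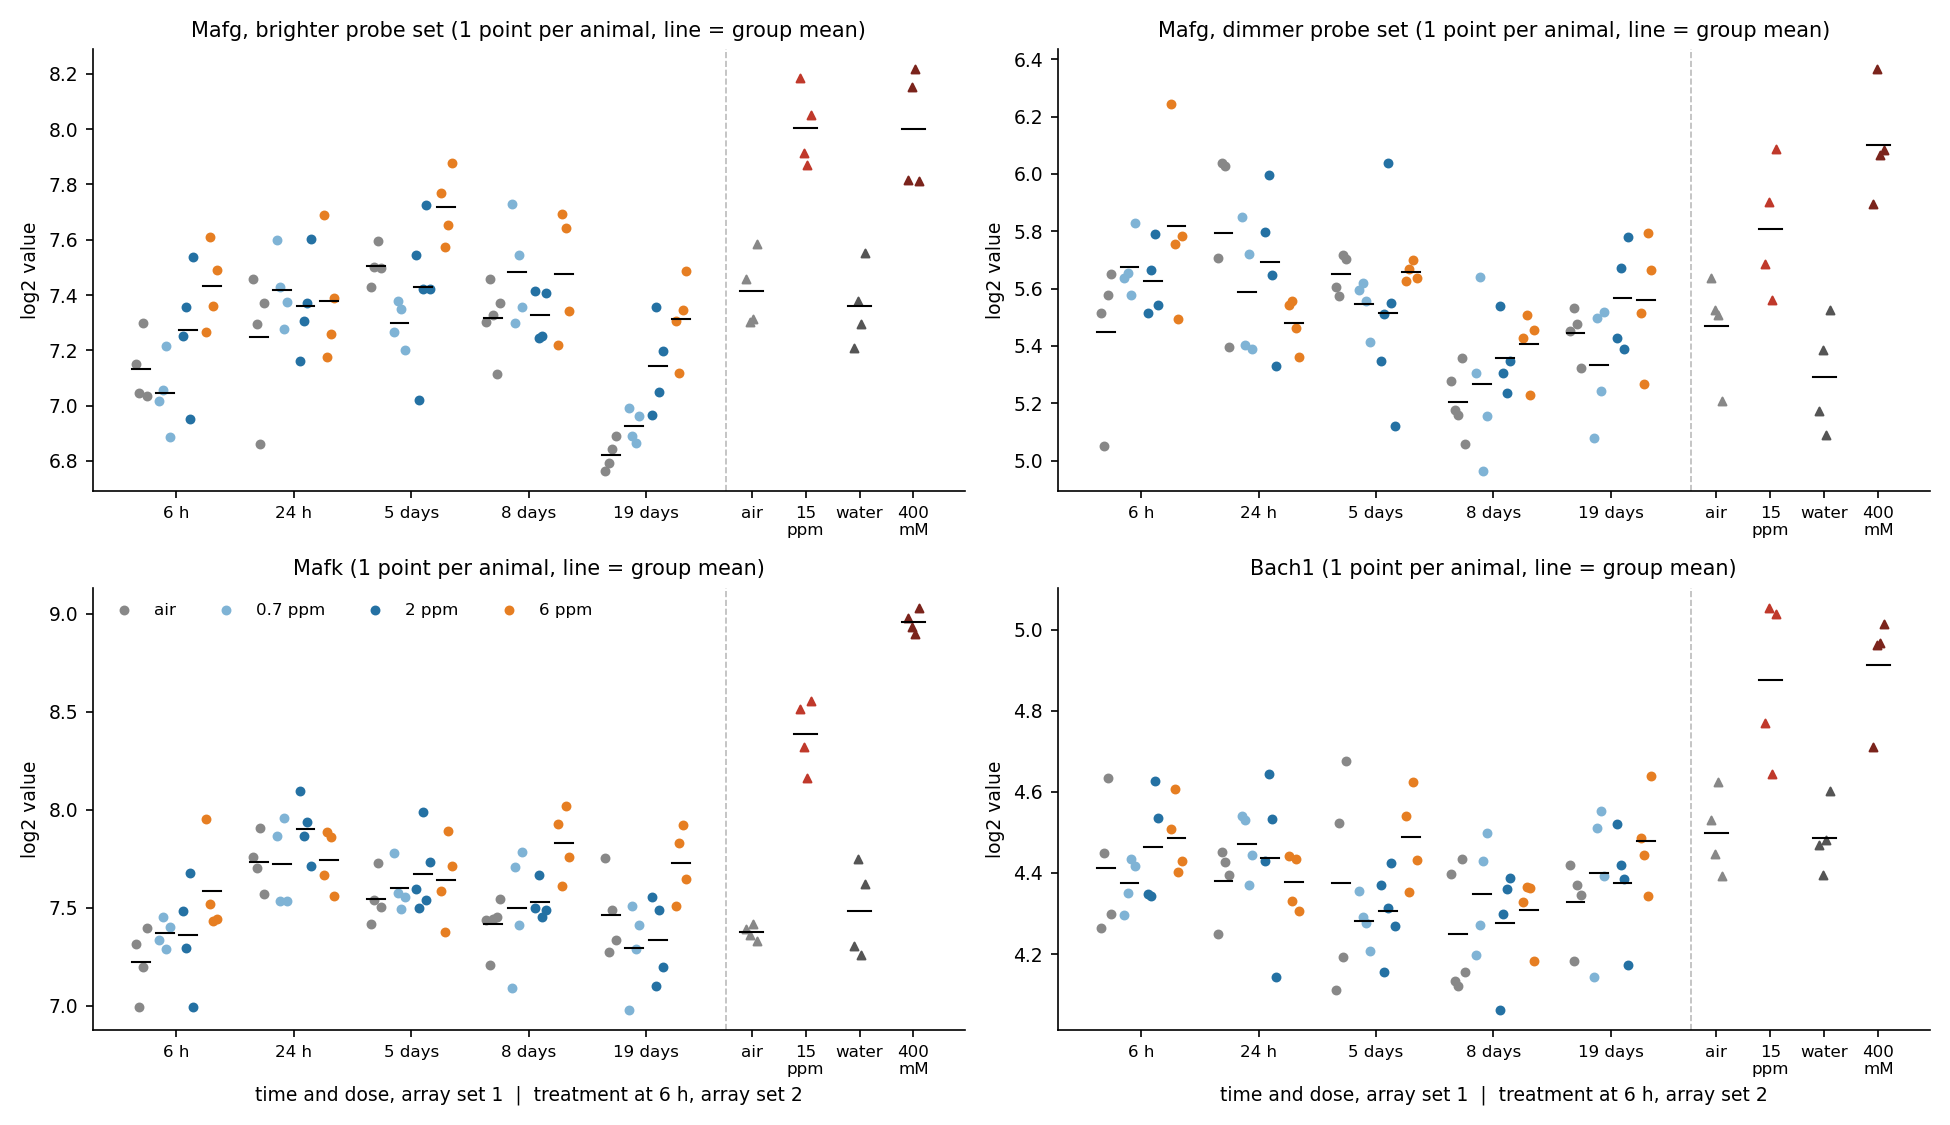
Log2 values of both Mafg probe sets, Mafk and Bach1 in each animal (points, triangles for array set 2), with group means as lines and a separate vertical scale in each panel. The 15 ppm and instilled animals of Mafk, 8.16 to 9.03, stand above their controls at 7.26 to 7.75, and the first Mafg probe set falls to 6.76 to 6.89 in the air animals at 19 days.

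Counted over the 4 probe sets of Mafg, Mafk and Bach1, 3 were called at 15 ppm, all higher, where 8.49% of all probe sets were called in either direction, and 4 of 4 after instillation, all higher, where 22.2% were called. Their median differences, 0.48 and 0.72, stood against 0.01 and 0.02 over all probe sets. At 6 ppm 1 of 4 was called at 19 days (0.412% of all), and 0 of 4 at 6 h (0.245% of all), at 24 h (0.00322%), at 5 days (0.119%) and at 8 days (0.029%), by limma's test. At an unadjusted p under 0.05 the counts were 3 at 6 h, 1 at 24 h, 0 at 5 days, 1 at 8 days and 2 at 19 days. The shares of all probe sets were 12.6%, 7.57%, 7.24%, 6.14% and 11.8% in the same order. At 0.7 and 2 ppm 0 of 4 were called at any time, with 1 at an unadjusted p under 0.05 (Mafg at 2 ppm and 19 days, 0.32 ± 0.12). There 8.64% of all probe sets had such a p, and the shares at these doses ran from 1.32% (0.7 ppm at 6 h) to 8.92% (2 ppm at 5 days). Of all probe sets 0.00644% were called at 0.7 ppm and 5 days, 0.00322% at 2 ppm and 6 h, 0.0741% at 2 ppm and 5 days, and 0% at the other times of these doses. Neither Mafg, Mafk nor Bach1 passed the F test of the 6 ppm effect across times (limma, adjusted p of 0.709 or more; 0.0129% of all probe sets passed).

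**Figure D3:**
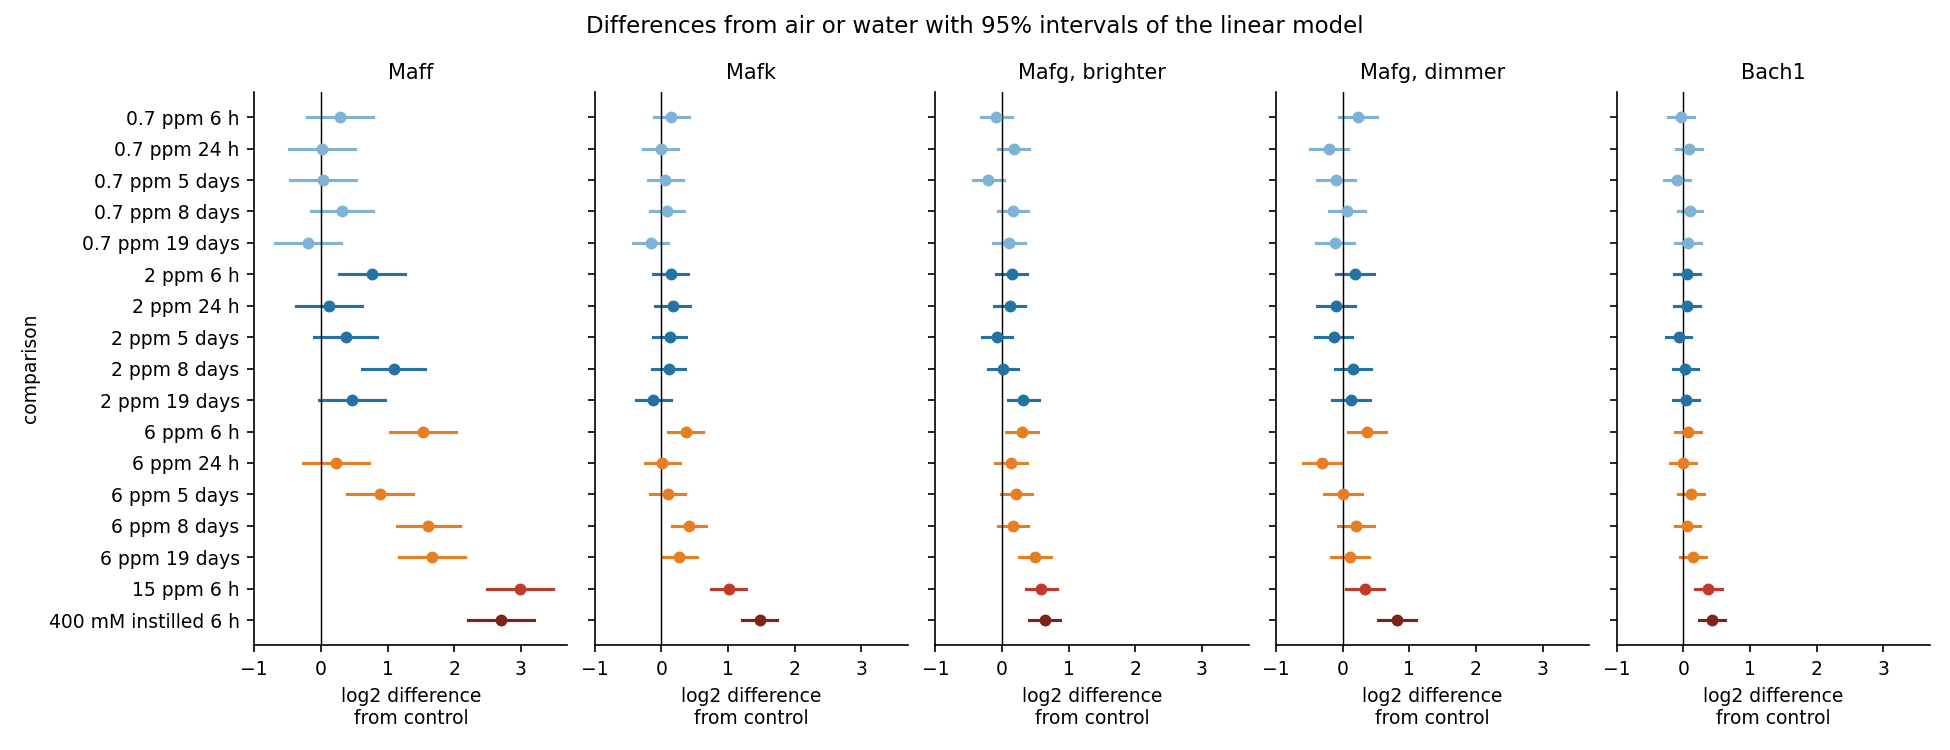
Log2 difference from air or water (points) with its 95% interval in the linear model (lines) for the 5 probe sets in the 17 comparisons, on 1 scale; for Maff at 6 ppm, 15 ppm and instillation the lines are a description, not a test. Maff reaches 1.66 at 6 ppm and 2.98 at 15 ppm, Mafk 0.41 and 1.01, and Bach1 0.15 and 0.38.

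Mafk and Mafg also differed between times in animals that breathed only air. Mafk passed the test across the 5 times in air (limma F test, adjusted p = 0.0466), with means of 7.23 ± 0.17 (SD) at 6 h and 7.74 ± 0.14 at 24 h, a rise of 0.51 ± 0.13 or 1.42-fold (limma, adjusted p = 0.0142; 3.41% of all probe sets passed). The F test fell short in 15 of 21 fits without 1 air animal. The rise at 24 h fell short without animal 50 (0.43) or animal 57 (0.45). It also fell short with the RNA integrity number as a covariate (0.48; limma, adjusted p = 0.0604). That fit left out animal 57, which has no recorded number. Mafg passed with both probe sets (limma F test, adjusted p = 0.000268 and 0.012). The first had its lowest mean at 19 days (6.82 ± 0.06) and its highest at 5 days (7.51 ± 0.07), and the second its lowest at 8 days (5.21 ± 0.12) and its highest at 24 h (5.79 ± 0.30). Bach1 did not pass (limma F test, adjusted p = 0.635). The changes of Mafk and Mafg in air were as large as their changes at 6 ppm, so their levels are read only against air of the same time.

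Genes that bind with these factors or are known to hold their elements were read from lists that were chosen with earlier results of these data known. Of the CNC partners and regulators, 4 of 6 were measured (Nfe2, Nfe2l1, Nfe2l2 and Keap1). Nfe2l2, which encodes NRF2, differed by -0.05 ± 0.07 at 15 ppm, 0.00 ± 0.07 after instillation and -0.04 ± 0.07 at 6 ppm and 6 h. Keap1, which encodes the adaptor that marks NRF2 for destruction, differed by 0.02 ± 0.07 and -0.03 ± 0.07 at the first and second of these. In the 17 comparisons the single call in this list was Nfe2, the partner of small Maf proteins in blood cells. It rose 1.98-fold at 15 ppm (0.98 ± 0.32; limma, adjusted p = 0.0419), where 8.49% of all probe sets were called. Of the large Maf factors, which carry an activating region, Maf and Mafa were measured and neither was called, with Maf at 0.67 ± 0.44 at 15 ppm.

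All 10 AP-1 factors listed, which share leucine zippers with the small Maf proteins, were measured. At 15 ppm, where 8.49% of all probe sets were called, 3 rose: Fosl1 by 10.6-fold, Atf3 by 5.99-fold and Fosb by 4.23-fold. After instillation, where 22.2% were called, 7 rose, with Fosl1 at 12.5-fold and Atf3 at 6.24-fold, and a list median of 0.88 against 0.02 over all probe sets. At 6 ppm Fosl1 alone was called, at 19 days (2.51-fold; limma, adjusted p = 0.00171; 0.412% of all probe sets called). None of the 10 fell in these comparisons.

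Of 23 genes with antioxidant or Maf recognition elements, 19 were measured. At 6 ppm, averaged over the 5 times, 9 rose and none fell, where 6.37% of all probe sets were called, with a list median of 0.25 against 0.00 over all probe sets. At 6 h, with 0.245% of all probe sets called, 4 rose: Hmox1, which breaks down heme, by 3.04-fold, Srxn1, which restores oxidised peroxiredoxins, by 2.10-fold, Txnrd1, a thioredoxin reductase, by 1.52-fold and Sqstm1, an autophagy receptor, by 1.31-fold. At 24 h, with 0.00322% of all probe sets called, none of the 19 was called. Of the 19, 1 had an unadjusted p under 0.05, as did 7.57% of all probe sets. Hmox1 and Srxn1 were called again at 5 days with Slc7a11, the cystine carrier, at 8 days with Sqstm1, and at 19 days with Slc7a11 and Osgin1. Of all probe sets 0.119%, 0.029% and 0.412% were called at these times. At 15 ppm, where 8.49% of all probe sets were called, 7 rose and Ephx1, an epoxide hydrolase, fell by 0.36 on the log2 scale. After instillation, where 22.2% were called, 5 rose and Abcc1 and Ephx1 fell. Nqo1, Gclc and Gclm, typical NRF2 targets, rose at 6 ppm over the pooled times by 1.24-fold, 1.30-fold and 1.34-fold.

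Likeness to each gene was measured by Pearson's r over the 24 group means, across 14216 other genes, as a description: the means share arrays, and the control groups are shared between doses. The 8 genes most like Maff were Srxn1 (0.96), Hmox1 (0.94), Tnfrsf12a (0.93), Slc7a11 (0.93), Plaur (0.91), Fosl1 (0.91), Oser1 (0.89) and Gnl3 (0.89). Tnfrsf12a encodes the receptor of TWEAK and Plaur that of urokinase. At 6 ppm Srxn1 differed from air by 1.07, 0.23, 1.48, 1.57 and 2.08 at 6 h, 24 h, 5 days, 8 days and 19 days, and Hmox1 by 1.60, 0.14, 0.99, 1.54 and 1.51. Like Maff, both were near air at 24 h.

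Mafk and Mafg had other neighbours. The genes most like Mafk were Rlim (0.95), Arid5a (0.94) and Cdkn1a (0.93), the last a cell cycle inhibitor. Arid5a differed by 1.04 at 15 ppm and 1.44 after instillation, and by 0.11 to 0.36 at 6 ppm. The genes most like Mafg were Sf1 (0.92), Pom121 (0.89) and Srsf2 (0.88), of which Sf1 and Srsf2 encode splicing factors, and Sf1 differed by 0.43 and 0.46 at the high exposures. Those most like Bach1 were Sowahc, Mgat2 and Nipa2 (0.89 each), with Spearman's rho of 0.38, 0.67 and 0.67, and with r of 0.34, 0.52 and 0.56 when the 15 ppm and instilled formaldehyde groups were left out. Without those groups r was 0.78 to 0.92 for the 8 genes of Maff. Between the 4 genes themselves r ran from 0.66 (Bach1 and Maff) to 0.79 (Maff and Mafk).

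**Figure D4:**
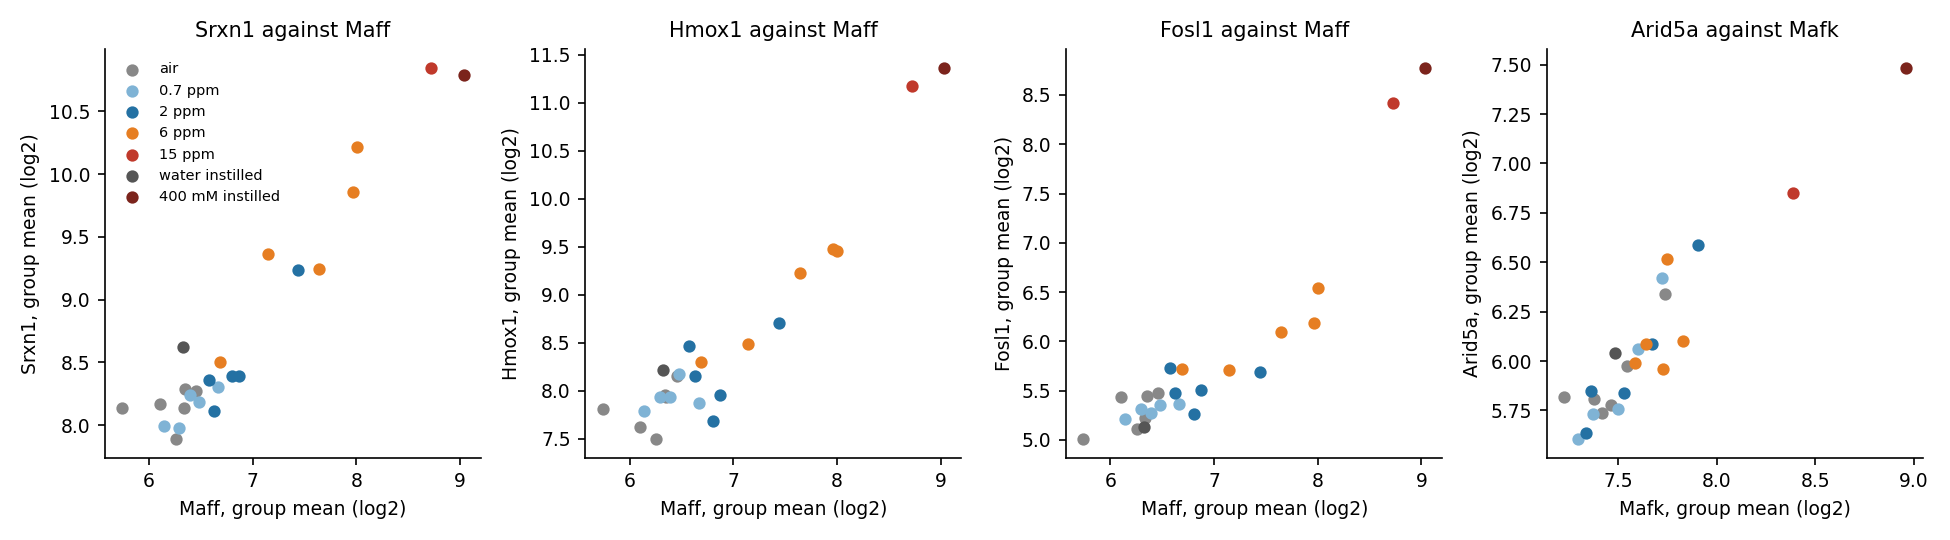
Group means (log2) of Srxn1, Hmox1 and Fosl1 against Maff and of Arid5a against Mafk, 1 point for each of the 24 groups, coloured by dose. The 6 ppm groups spread between 6.69 and 8.00 for Maff and lie along the trend for Srxn1 and Hmox1, while for Mafk they stay between 7.59 and 7.83.

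Neutrophil markers moved with the high exposures. Of 6 markers 4 were called higher at 15 ppm, where 8.49% of all probe sets were called, and 6 after instillation, where 22.2% were. None was called at 6 ppm at any time, but there only 0.00322% to 0.412% of all probe sets were called. By the means over all arrays S100a9 (10.45) and S100a8 (9.16) make up most of the summed level of the 6 markers. Csf3r, Mmp9, Itgam and Cxcr2 were dim, with means of 4.69 to 5.55. The summed level was 11.84 to 12.12 at 15 ppm against 9.62 to 10.42 in air, and 12.90 to 13.80 after instilled formaldehyde against 10.47 to 11.24 after water. At 6 ppm and 6 h it was 10.47 to 11.40 against 9.79 to 11.57 in air. The medians at 6 ppm and in air were 10.81 and 10.59 at 6 h, 11.27 and 10.76 at 24 h, and 11.29 and 11.27 at 5 days. At 8 days they were 11.62 and 11.04, and at 19 days 11.22 and 11.03. Among the 82 animals of array set 1, 5 had a sum above the lowest 15 ppm animal. A 2 ppm animal at 24 h with a sum of 13.15 had Maff at 6.58 and Mafk at 7.87, and a 6 ppm animal at 5 days with a sum of 13.43 had Maff at 7.04 and Mafk at 7.59. The other 3, at 0.7 or 2 ppm, had Maff at 6.28 to 6.70. Within groups the direction varied. Maff rose with the sum at 6 ppm and 19 days, from 7.51 at 10.09 to 8.52 at 11.58. At 2 ppm and 6 h the lowest sum, 9.83, had Maff at 6.29 and the highest, 11.80, at 7.50. At 2 ppm and 8 days the lowest sum, 9.91, had the highest Maff, 7.84, and the highest sum, 11.38, the lowest, 6.90. At 6 ppm and 6 h the highest sum, 11.40, had the lowest Maff, 7.04. The part of neutrophils in the differences at 2 ppm, 6 ppm, 15 ppm and after instillation was not tested.

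**Figure D5:**
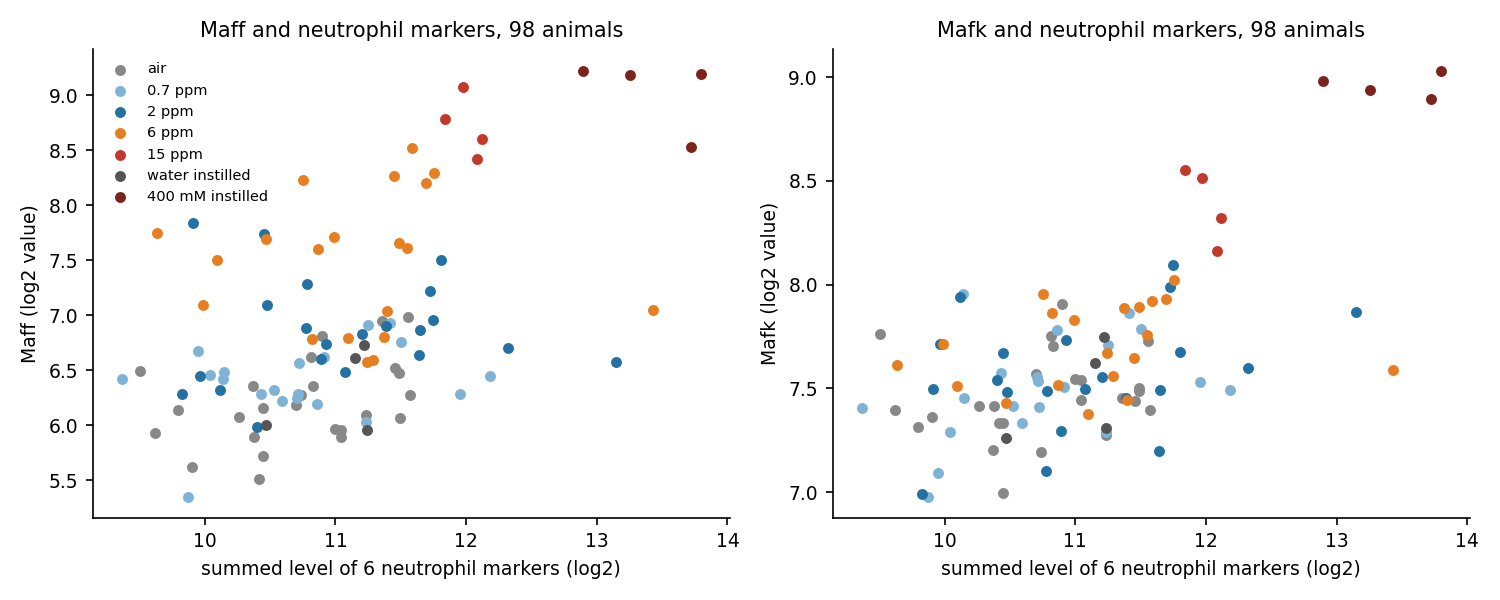
Maff (left) and Mafk (right) against the summed level of 6 neutrophil markers (log2 scale on both axes), 1 point per animal, coloured by treatment. By the means over all arrays S100a9 and S100a8 make up most of the sum. The instilled animals stand at sums of 12.90 to 13.80 and Maff of 8.53 to 9.23, and animals at 2 or 6 ppm with sums of 13.15 and 13.43 lie at Maff of 6.58 and 7.04. At 6 ppm and 19 days Maff runs from 7.51 at a sum of 10.09 to 8.52 at 11.58, and at 2 ppm and 8 days from 7.84 at 9.91 to 6.90 at 11.38.

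The macrophage and dendritic cell markers (4 of 4 measured) had lower sums at 6 ppm than in air at 6 h (11.87 to 12.36 against 12.53 to 12.85) and at 19 days (11.89 to 12.37 against 12.43 to 12.78), with no overlap. Of all probe sets 8.82% and 6.77% showed no overlap at these times, in either direction. By the means over all arrays Cd74 (12.38) makes up most of this sum, with Csf1r at 7.89, Cd68 at 7.22 and Mrc1 at 6.19. At 8 days the sums overlapped (12.44 to 12.78 against 12.22 to 12.62). None of these markers was called at a single time at 6 ppm, where 0.00322% to 0.412% of all probe sets were called. The part of these cells in the Maff differences was not tested. At 15 ppm, where 8.49% of all probe sets were called, 2 of 7 epithelial markers were called. These were Krt8 and Krt18, which rose by 1.27-fold and 1.26-fold. The list held no other call over the 17 comparisons, and so none after instillation. After instillation, where 22.2% of all probe sets were called, Foxj1, of ciliated cells, fell by 0.66 on the log2 scale. Col1a1, of stroma, fell by 0.81, and Cd68, of macrophages, rose by 1.57-fold. Each of their lists held only 1 call over the 17 comparisons, so the other markers in them were not called. The macrophage and dendritic cell sums after instilled formaldehyde, 12.48 to 13.20, overlapped those after water, 12.38 to 12.86. The olfactory sum was 9.72 to 11.14 after instilled formaldehyde, 10.12 to 12.16 after water, 11.67 to 13.54 at 15 ppm and 12.34 to 13.42 in air of array set 2, and its part in the differences was not tested.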

How the data were processed

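The deposited values are on a log2 scale, 1 per probe set and array; the summary, background correction and normalization behind them are not stated in the labels. Of 31099 probe sets, 57 controls were removed. Symbols came from the platform annotation, updated to RefSeq (GRCr8): 20826 probe sets had 1 symbol, 436 several and 9780 none. The probe set with the highest mean stood for a gene. A linear model with a coefficient for each of 24 groups was fitted to all arrays (limma 3.58.1 in R 4.3.3; 74 residual degrees of freedom), with two-sided moderated tests, Benjamini-Hochberg adjustment over 31042 probe sets per comparison, and calls at an adjusted p under 0.05. The code was tested on simulated data. Air of the matching time and array set, or water, was the control. Array set follows the project name in the source label. In 1 field the 0.7 ppm animals of day 8 carry another dose; the other labels were followed.

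The members and lists were chosen with earlier results of these data known. The text names the members, the genes most like each by r (8 for Maff, 3 for the others) and listed genes behind counts of 5 or fewer; other listed genes are examples named after their values were seen. Marker sums are log2 of summed linear signals. Each replicate is a separate animal. Alternatives were cyclic loess, trend and robust moderation, a filter on dim probe sets, RNA integrity as a covariate, array weights, the mean of a gene's probe sets, 2-group fits, the other air control, other measures of likeness and leaving out each animal. The fit with the RNA integrity covariate used only the 85 arrays that have the number.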

Additional observations from a re-analysis of the deposited data

Results flagged for a closer look

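In 4 of 120 groups of member values 1 animal stood far from the rest by Dixon's criterion, which chance alone gives in about 1 of 20 groups. Maff was highest in an air animal at 5 days (animal 62, 6.99, with the others at 5.89 to 6.08) and lowest in an instilled animal (animal 372, 8.53, with the others at 9.19 to 9.23). Mafk was highest in a 6 ppm animal at 6 h (animal 283, 7.95, with the others at 7.43 to 7.52), and Bach1 lowest in an instilled animal (animal 365, 4.71, with the others at 4.96 to 5.01).

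At 0.7 ppm Mafg, by its brighter probe set, differed from air in opposite directions at different times. All 4 animals lay above the air mean at 24 h (0.17) and at 19 days (0.11), and all 4 below it at 5 days (-0.21). The other Mafg probe set differed by -0.20, -0.10 and -0.11 at 24 h, 5 days and 19 days, the same direction at all 3 times. The difference between these times was not tested, and none of these values passed the test on its own.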

How the results depend on the processing

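No paired analysis was possible because a rat had only a single array. Across 162 results, 12 other settings and 98 fits that each left out 1 animal, no called difference changed sign. Only differences called in the main fit were scored for a change of sign. Uncalled differences, F values, counts and correlations among the 162 were not. The F value of Mafk across times in air, 4.02, was 3.85 with cyclic loess and 3.17 with the RNA integrity number as a covariate, and lost its call in both. It was 2.83 to 4.38 with 1 animal left out and lost its call in 15 of 21 such fits. The rise of Mafk in air from 6 h to 24 h lost its call with the RNA integrity covariate (0.48). That fit left out the arrays without a recorded number, among them air animal 57 at 24 h. Leaving out animal 57 alone also lost the call, so the adjustment and the missing animal cannot be told apart here. The rise of Mafg at 6 ppm and 19 days was 0.30 for the mean of its probe sets and 0.49 in a fit of the 2 groups alone, both short of the threshold, and 0.44 to 0.56 with 1 animal left out. That of Bach1 at 15 ppm was 0.38 in the fit of the 2 groups alone (limma, adjusted p = 0.0589) and 0.32 to 0.46 with 1 animal left out. The filter on dim probe sets left 2 of the 4 calls after instillation, because it removed Bach1 and the second Mafg probe set. Maff at 15 ppm was 2.62 against the air of array set 1. Maff at 2 ppm over the pooled times was 0.43 without 8 days, an alternative chosen after seeing the data.

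The difference of Mafk between 15 ppm and 6 ppm passed under loess (0.67), the filter (0.65) and array weights (0.62), and Maff at 2 ppm and 8 days with array weights (1.34; limma, adjusted p = 0.00163). For the other settings the cause was not tested. The preprocessing behind the deposited values is unknown, detection calls were not used here, and the weak Bach1 signal limits what its values can show.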
